A study of Mus musculus with 12 samples.

Results

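The genes described here are 9 transcription regulators of 3 families, taken by symbol from a table of 26214 genes: the nuclear factor I genes Nfia, Nfib, Nfic and Nfix, the GATA factor genes Gata4 and Gata6, and the transducin-like enhancer of split genes Tle1, Tle3 and Tle5. They were measured in mLTC-1, an immortalized mouse line of Leydig cells, the androgen-producing cells of the testis. In the 6 libraries of the MSNBA group the cells had received MSNBA at 100 µM, a nitrophenyl benzodioxolamine that the series names as blocking Glut5, which carries fructose. In the 6 control libraries they had received the DMSO solvent, and RNA was taken after 24 h in both groups. Replicates are libraries of 1 cell line, and the labels do not say whether they came from separate cultures, so errors measure only the spread between these libraries, which may be technical. The genes were chosen with results of the treatment comparison in view. Their differences between groups are therefore a description: the fit over all genes gives their sizes and errors, and its calls among them are set beside the background as no evidence.

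NFI proteins bind DNA as dimers at paired TTGGC sites and can activate or repress transcription. GATA4 and GATA6 are zinc finger factors that bind GATA sequences and, in Leydig cells, act at the promoters of steroidogenic genes such as Star and Cyp17a1. TLE proteins do not bind DNA themselves: DNA-binding partners of the Hes, Runx and TCF families recruit them as corepressors. Tle5, formerly Aes, encodes a short protein of this family that lacks the WD-repeat region and can oppose the longer ones.

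Total counts ran from 59113 to 657251 per library and were 2.14-fold higher in MSNBA by geometric mean, so that the controls carry the larger counting error. Levels are normalized CPM, each count scaled by the library's total over the 2614 tested genes and a TMM factor. The cells carried Leydig markers: the summed level of 8 of them was 9825 to 13897 CPM across controls and 9636 to 12092 CPM across MSNBA libraries. Of the 8, 0 were at 0 counts. In controls and MSNBA respectively, summed levels reached at most 137 and 127 CPM for 10 Sertoli cell markers and 78.0 and 20.7 CPM for 8 macrophage markers. They reached at most 215 and 163 CPM for 8 fibroblast and peritubular markers, 65.0 and 27.1 CPM for 6 endothelial markers and 108 and 149 CPM for 6 germ cell markers. Counts in controls and MSNBA were 64 and 114 for Sertoli cell markers and 11 and 17 for macrophage markers. They were 55 and 76 for fibroblast and peritubular markers and 9 and 18 for endothelial markers. As 1 count is 21.7 CPM in control 5 but 1.83 CPM in MSNBA 1, these maxima cannot be compared between groups. Of the germ cell marker counts, Kit alone held 28 of 48 in controls and 101 of 133 in MSNBA. Tie1 and Cd14 had 0 counts in every library. In bulk RNA, fewer cells of a kind and less RNA per cell cannot be told apart.

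The genes lie on 6 chromosomes of the GRCm38.p6 assembly, which is mm10. Nfic, on chromosome 10 from 81396191 to 81431919, and Tle5, on the same chromosome from 81559444 to 81566371, are 127.5 kb apart. Nfia (97578066 to 98118876), Nfib (82290173 to 82506751) and Tle1 (72109945 to 72200989) are all on chromosome 4. Nfix lies on chromosome 8 from 84704712 to 84801238, Tle3 on chromosome 9 from 61372326 to 61418497 and Gata4 on chromosome 14 from 63198914 to 63271712. The name of the deposited table reads as unique alignments to RefSeq genes counted by molecular identifier (UMI), which no label spells out, and whether the counting used strand is not given. The annotated genes that overlap a member and are in the table had few counts over all 12 libraries: 8 for Gata6os, 2 for Lyl1 (over Nfix), 1 for Gm16104 (over Nfic) and 0 for the others.

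RefSeq start windows (250 bases before to 50 after a start) are described for 5 of the 9 genes, with 8 windows in all. Nfib, Gata4 and Tle5 had no matched window, and Gata6 was left out of this part by its chromosome. The counts below thus cover only the windows of the other 5 genes. Those of Nfic, Nfia and Tle3 are printed 5′ to 3′ on the gene's strand, Nfic because it was the NFI gene with the lowest value in MSNBA relative to control, Nfia as an NFI gene without such a difference, and Tle3 for its paired TTGGC sites. Capitals mark NFI sites (TTGGC) or GATA sites (AGATAA) on either strand. The Nfic window is chr10:81427124-81427423 on the minus strand, the Nfia window chr4:97581693-97581992 on the plus strand and the Tle3 window chr9:61372116-61372415 on the plus strand. Measured from the outermost 5′ end of the annotated gene, the Tle3 start lies 0.04 kb inside, but those of Nfia and Nfic lie 3.88 and 4.75 kb inside, at internal starts.
Nfic: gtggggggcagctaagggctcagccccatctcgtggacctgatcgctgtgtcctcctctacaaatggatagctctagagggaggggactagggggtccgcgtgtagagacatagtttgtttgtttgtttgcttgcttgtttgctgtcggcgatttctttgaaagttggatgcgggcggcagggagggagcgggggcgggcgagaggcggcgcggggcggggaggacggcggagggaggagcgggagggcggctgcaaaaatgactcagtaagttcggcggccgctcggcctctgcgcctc
Nfia: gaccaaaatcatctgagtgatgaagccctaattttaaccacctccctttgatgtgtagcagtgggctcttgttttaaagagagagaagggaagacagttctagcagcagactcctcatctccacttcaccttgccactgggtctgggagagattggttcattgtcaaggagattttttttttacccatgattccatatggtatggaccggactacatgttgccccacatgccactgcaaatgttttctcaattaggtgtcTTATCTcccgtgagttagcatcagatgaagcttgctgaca
Tle3: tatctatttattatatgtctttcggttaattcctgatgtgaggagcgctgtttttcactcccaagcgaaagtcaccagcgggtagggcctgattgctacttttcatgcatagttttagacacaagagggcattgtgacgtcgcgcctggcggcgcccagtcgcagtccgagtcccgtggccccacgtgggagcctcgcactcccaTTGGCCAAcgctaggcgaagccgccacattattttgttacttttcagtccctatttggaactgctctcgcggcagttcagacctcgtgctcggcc
The Nfic window, with 63.0% G and C, held 0 of either site. The Nfia window, with 44.7% G and C, held 1 GATA site and 0 TTGGC sites. In the Tle3 window 2 TTGGC sites, 1 on each strand, overlapped, whereas the full site, TTGGC and GCCAA with 5 bases of any kind between them, was found in 0 of the 8 windows. A TTGGC site was present in 5 of the 8 windows, of which 3 were among the 4 windows of Nfix, so by gene in 3 of 5, and in 46.7% of 32841 start windows of all genes, with 11.2% for the GATA site and 0.0365% for the full NFI site. The starts of the 4 Nfix windows lie 21.16 to 28.36 kb inside the annotated gene. All these matches describe letters only, and for Nfia, Nfic and Nfix they say nothing of the outermost start.

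Among the NFI genes, Nfic stood apart. Its lowest, median and highest levels were 397, 472 and 780 CPM in controls and 301, 337 and 366 CPM in MSNBA. All 6 MSNBA libraries thus lay below all 6 controls, and control 3 was the highest library. Means were 517 ± 139 CPM without and 336 ± 20.7 CPM with MSNBA (SD, n = 6 each), from 260 and 418 counts. The fitted log2 fold change was -0.60 (SE 0.16), a ratio of 0.659 with a 95% interval from 0.528 to 0.823. Of all tested genes, 11 had MSNBA libraries wholly below the controls, a background of 0.421%. The spread of Nfic within MSNBA, a coefficient of variation of 6.15%, was smaller than the 14.4% that counting error alone gives at these depths, and in controls it was 26.8% against 16.4%.

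**Figure D1:**
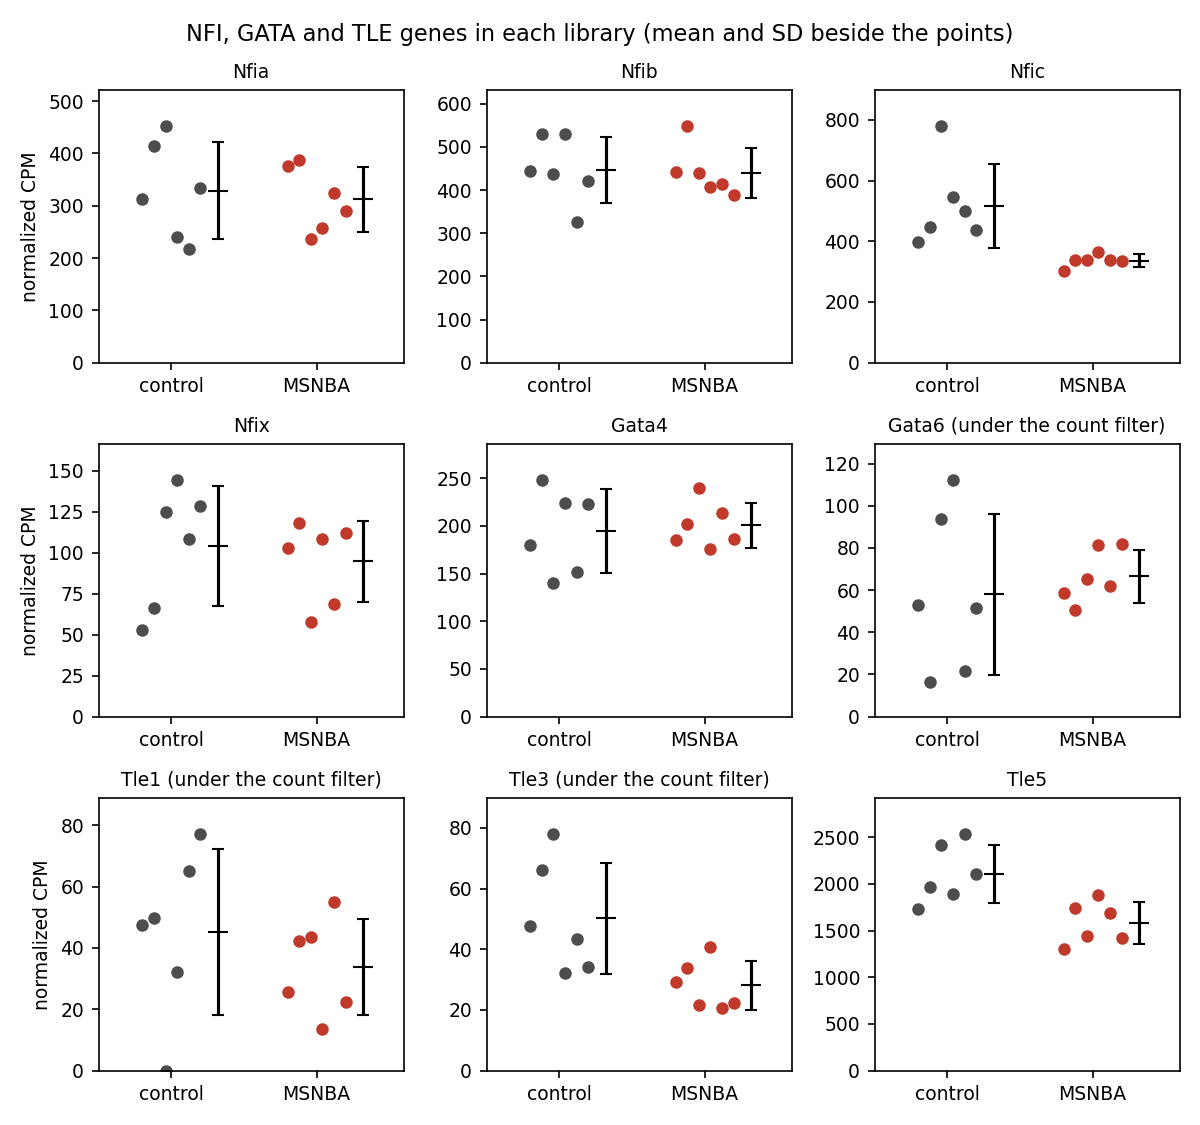
Normalized CPM (vertical axes, from 0) of the 9 genes in the 6 control and the 6 MSNBA libraries, 1 point per library in replicate order, with mean and SD beside. The groups of Nfic do not overlap, those of Tle5 overlap in part, and those of Nfia, Nfib, Nfix and Gata4 lie over each other.

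Nfib, which is needed for lung and brain development, had 325, 440 and 529 CPM as lowest, median and highest control values and 388, 426 and 548 CPM in MSNBA. The groups lay over each other, with a log2 fold change of -0.03 (SE 0.15) and a 95% interval of the ratio from 0.799 to 1.20. Nfia, a regulator of glial development, ran from 217 through a median of 323 to 452 CPM in controls and from 236 through 307 to 388 CPM in MSNBA. Its log2 fold change was -0.06 (SE 0.18), with an interval of the ratio from 0.746 to 1.23. For both genes the ranges of the groups overlapped, and the intervals include ratios on either side of 1. Nfix, an NFI gene of muscle and brain, was scarcer, at 52.9, 117 and 144 CPM in controls and 58.0, 106 and 118 CPM in MSNBA. Its groups overlapped, with a log2 fold change of -0.07 (SE 0.27) and an interval of the ratio from 0.65 to 1.40.

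Counts of Nfic were also set against the summed counts of the 4 NFI genes in the same library, a share that needs no scaling factor. It was 36.8% ± 5.56 in controls and 28.6% ± 3.41 in MSNBA (SD, n = 6 per group), from 729 and 1527 NFI counts. Of the 6 controls, 5 lay above all MSNBA libraries, and control 2, at 30.7%, lay within the MSNBA range of 24.2% to 32.1%. The highest shares were 43.5% in control 3 and 43.4% in control 5. With each library left out in turn the difference of the means ran from -9.41 to -6.85 percentage points. The summed level of the other 3 NFI genes was 880 ± 137 CPM without and 846 ± 120 CPM with MSNBA (SD, n = 6 each).

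**Figure D2:**
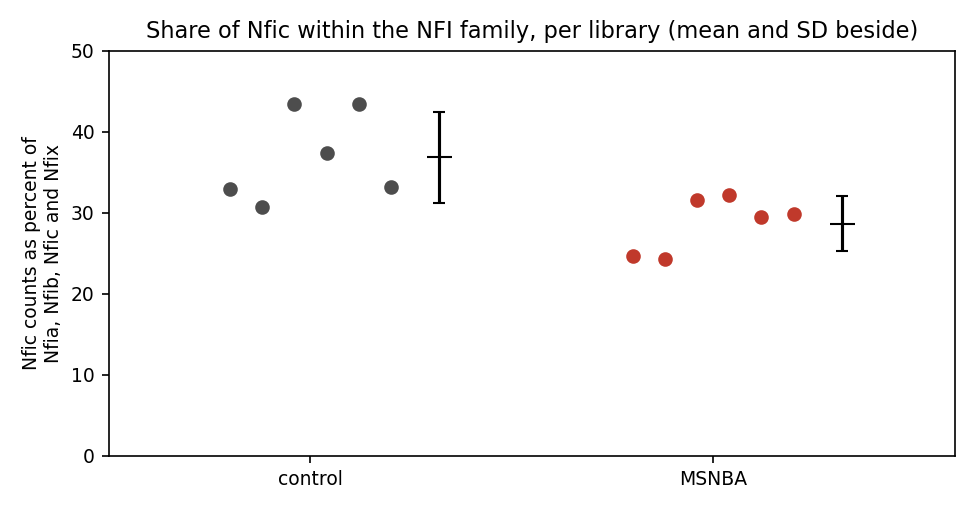
Nfic counts as a percent of the summed counts of Nfia, Nfib, Nfic and Nfix in each library (vertical axis, from 0), with group mean and SD beside the points. The shares average 36.8% in controls and 28.6% in MSNBA, and control 2 at 30.7% lies among the MSNBA libraries.

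Gata4, the main GATA factor of gonadal somatic cells, had 140, 201 and 248 CPM as lowest, median and highest control values. In MSNBA the values were 176, 194 and 239 CPM, all within the control range. The log2 fold change was 0.05 (SE 0.19), with a 95% interval of the ratio from 0.796 to 1.35. Gata6, which acts beside Gata4 in steroidogenic cells, lies on chromosome 18 from 11052510 to 11085636. It had 31 counts in controls and 82 in MSNBA and fell under the filter on low counts. Its pooled levels were 57.5 CPM (exact Poisson interval from 39.1 to 81.7) in controls and 63.4 CPM (50.5 to 78.7) in MSNBA, a ratio of 1.10 with an exact interval from 0.721 to 1.73. Controls ran from 16.5 to 112 CPM and MSNBA libraries, from 50.6 to 82.0 CPM, lay inside that range. Pooled intervals cover counting error only. The share of Gata4 in the counts of both GATA genes was 77.7% ± 12.7 in controls and 74.98% ± 4.88 in MSNBA (SD, n = 6 per group).

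Tle5 had the highest level of the 3 TLE genes. Its lowest, median and highest values were 1735, 2039 and 2535 CPM in controls and 1306, 1563 and 1884 CPM in MSNBA. Of the 6 MSNBA libraries 4 lay below all controls, while MSNBA 4 and MSNBA 2 reached into the control range. The means were 2109 ± 311 and 1580 ± 223 CPM (SD, n = 6 per group), from 1083 and 1890 counts. The log2 fold change was -0.42 (SE 0.11), a ratio of 0.748 with a 95% interval from 0.64 to 0.873. With log2 library size in the model it was -0.22 (SE 0.12). Tle5 held 89.9% ± 2.18 of the counts of all Tle genes in controls and 88.4% ± 1.84 in MSNBA (SD, n = 6 per group), and its ranges of 87.6% to 92.9% and 86.4% to 90.8% overlapped.

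The longer corepressors were scarce. Tle3 had 26 counts in controls and 35 in MSNBA, with pooled levels of 48.3 CPM (31.5 to 70.7) and 27.1 CPM (18.9 to 37.7). The ratio was 0.561 with an exact interval from 0.328 to 0.971, which covers counting error only. While 4 of 6 MSNBA libraries lay below all controls, single libraries held few Tle3 counts, 2 to 9 in controls and 3 to 16 in MSNBA. The edgeR fit without the low-count filter gave a log2 fold change of -0.68 (SE 0.42). Tle1 had 26 and 43 counts, with pooled levels of 48.3 CPM (31.5 to 70.7) and 33.3 CPM (24.1 to 44.8). The ratio was 0.689 with an exact interval from 0.414 to 1.17. The Tle1 values ran from 0 in control 3, where a floor of 3 counts is 46.8 CPM, to 77.1 CPM in control 6, and the MSNBA values from 13.6 to 55.1 CPM lay within that range. The interval of Tle1 includes 1.

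By the edgeR quasi-likelihood test over all 2614 genes, adjusted by Benjamini-Hochberg, 0 of the 6 members that passed the low-count filter were past 0.05, beside a background of 0.0765% (2 genes, both lower). At an unadjusted p under 0.05 there were 2 lower, Nfic and Tle5, and 0 higher, where 4.78% of all genes were lower and 4.17% higher, 8.95% in all. The contrast is the one the genes were chosen on, so nothing is read from these counts. DESeq2 and limma-voom also placed 0 members past the adjusted threshold and had 2 lower at an unadjusted p under 0.05, but with log2 library size in the edgeR model 1 was left, Nfic. DESeq2 gave no adjusted p for Nfix and Gata4, so it could not have called them. The median log2 fold change of the 6 members was -0.07, and that of all tested genes was -0.0082. Nfix, with 170 counts in all, was just inside the filter, and Gata6, with 113, just outside. The 2 genes past the threshold were Nrg1, a growth factor gene, with a log2 fold change of -1.04 (SE 0.21), and Actn4, an actin crosslinker gene, with -0.79 (SE 0.17). Nrg1 was past it in 12 of 23 alternatives and Actn4 in 9, and with log2 library size in the model they were at -0.70 and -0.60, each with an edgeR adjusted p of 0.388 (over the alternatives, 0.00308 to 0.388 and 0.00732 to 0.388).

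**Figure D3:**
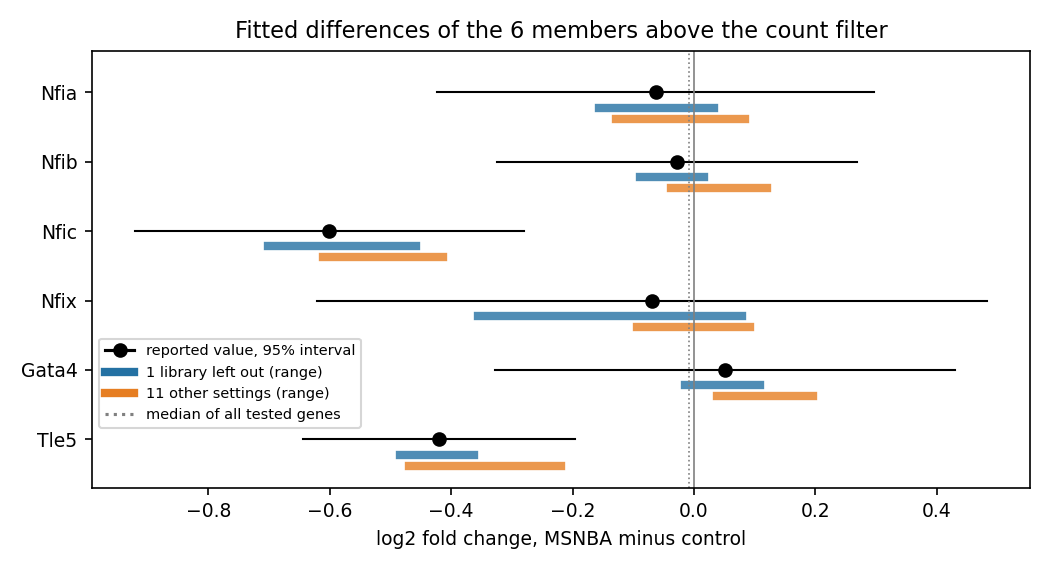
Log2 fold change (MSNBA minus control, horizontal axis) of the 6 genes above the count filter. Black points and lines are the reported values with 95% intervals, blue bars the range with 1 library left out, orange bars the range over 11 other settings (10 for Nfix), and the dotted line is the median of all tested genes. Nfic at -0.60 and Tle5 at -0.42 stay below 0 throughout. The black intervals and blue ranges of Nfia, Nfib, Nfix and Gata4 include 0, as do their orange ranges except that of Gata4, from 0.039 to 0.196.

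Levels of Nfic and Tle5 correlated negatively with depth over the MSNBA libraries, though no relation with depth passed after adjustment. In MSNBA, Nfic was highest at 366 CPM in the shallowest library (94179 counts) and lowest at 301 CPM in the deepest (657251 counts). Tle5 was at 1884 and 1306 CPM in the same libraries. The Pearson correlation with log2 depth over the 6 MSNBA libraries was -0.91 for Nfic (exact permutation p = 0.0306, adjusted p = 0.183) and -0.87 for Tle5 (exact permutation p = 0.0194, adjusted p = 0.183). Spearman's rho was -0.83 for each (exact permutation p = 0.0583, adjusted p = 0.35). Without the 2 libraries farthest from the median depth, MSNBA 1 and MSNBA 3, r was -0.97 for Nfic and -0.72 for Tle5. The shallowest library, MSNBA 4, stayed in. Nfic was at 366 CPM there, and at 338, 337 and 335 CPM in MSNBA 2, MSNBA 5 and MSNBA 6. Its r of -0.97 thus rested on MSNBA 4. In MSNBA 3, the second deepest at 342488 counts, Nfic was also at 337 CPM. The 4 MSNBA libraries between the shallowest and the deepest thus lay at 335 to 338 CPM, without a fall by depth. In controls r was -0.51 for Nfic (exact permutation p = 0.217, adjusted p = 0.65), and 0.50 without the 2 farthest libraries, so that its sign rested on those. For Tle5 in controls r was -0.66 (exact permutation p = 0.15, adjusted p = 0.6), and -0.52 without the 2 farthest libraries. Spearman's rho in controls was -0.49 for Nfic and -0.54 for Tle5 (exact permutation p = 0.356 and p = 0.297, adjusted p = 0.846 for both). These are 4 of 12 two-sided relations computed over the 6 tested members and both groups, of which 0 passed after adjustment. With log2 library size in the model the log2 fold change of Nfic was -0.41 (SE 0.18) and that of Tle5 -0.22 (SE 0.12), so that the value of Tle5 shrank by over 1.5 times. Control 1, the deepest control at 234225 counts, was the lowest control for both genes, at 397 CPM for Nfic and 1735 CPM for Tle5. It was deeper than 4 of the MSNBA libraries. For Nfic it lay above all MSNBA libraries, and for Tle5 below MSNBA 4 and MSNBA 2. Depth differed between the groups, and 1 library cannot tell depth and treatment apart.

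**Figure D4:**
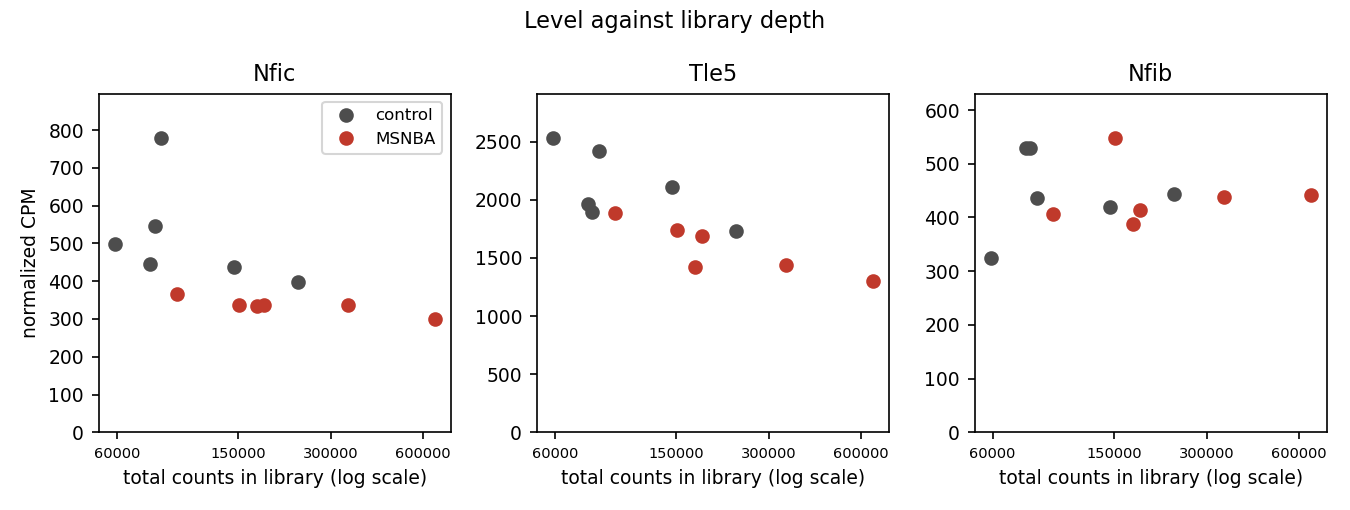
Normalized CPM (vertical axes, from 0) of Nfic, Tle5 and Nfib against total counts per library (horizontal axes, log scale), with controls in grey and MSNBA in red. Nfic and Tle5 are lowest in the deepest MSNBA library, at 301 and 1306 CPM, and Nfib, at 442 CPM there, shows no such slope.

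Base composition differed among the members. The longest annotated transcript had 57.1% to 57.4% G and C for Nfic, Nfix, Gata4 and Tle5, against 42.7% for Nfia and 43.3% for Nfib. The median log2 fold change was -0.08 in the richest of 5 equal groups of tested genes ordered by G and C, to which the first 4 belong, and -0.0017 in the poorest. Within the richest group, Nfic lay at the 2.1 percentile, Tle5 at 7.5, Nfix at 50.4 and Gata4 at 69.5. Among all tested genes they lay at the 1.4, 5, 39.9 and 59.5 percentiles. The part of base composition in these values was not tested further.

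Since Nfic and Tle5 are neighbours, the genes around them were examined, a choice made after their values were seen. The table held 41 other genes within 250 kb on either side, and 6 of them passed the count filter. Of these, 3 had values below 0 and 3 above, and 0 passed the edgeR test at an adjusted p of 0.05, with 0 at an unadjusted p under 0.05. DESeq2 and limma-voom also called 0 of them, but DESeq2 gave no adjusted p for Gna11 and Fzr1 among them and could not have called those. Gna11, a G protein subunit gene and the tested gene between the pair, was at -0.29 on the log2 scale (SE 0.23, adjusted p = 0.728). Fzr1, which encodes an activator of the anaphase-promoting complex on the other side of Nfic, had 0.08 (SE 0.25, adjusted p = 0.956), a sign that turned in some settings. Tle2 and Tle6, next to Tle5, had 35 and 31 counts in controls and 65 and 84 in MSNBA, too few for the test. For Tle2 the mean level was 70.7 ± 43.3 CPM without and 52.8 ± 14.9 CPM with MSNBA. For Tle6 it was 54.1 ± 34.7 against 62.6 ± 29.8 CPM. Apba3, under the filter on the Fzr1 side with 47 and 60 counts, averaged 96.1 ± 29.5 against 46.2 ± 14.0 CPM. Hmg20b there, with 27 and 88 counts, averaged 53.4 ± 18.3 against 69.9 ± 22.4 CPM (SD, n = 6 each). Groups overlapped for all of them, and these differences were not tested.

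**Figure D5:**
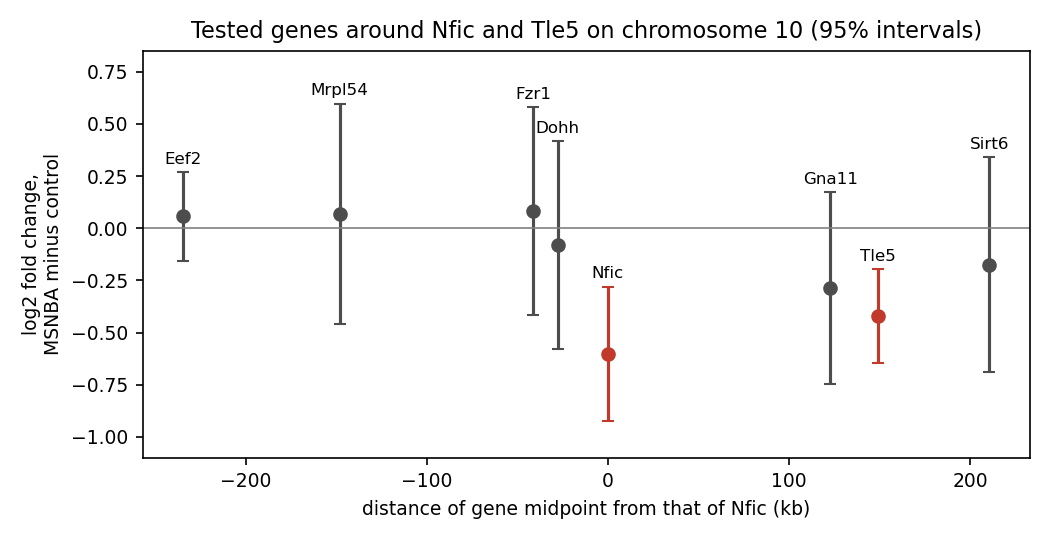
Log2 fold change (MSNBA minus control, vertical axis) with 95% intervals for tested genes around Nfic, plotted by the distance of their midpoints from that of Nfic in kb. Nfic and Tle5 are in red. The 6 other genes have intervals that include 0.

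Levels per kilobase of annotated exon gave an order among the genes in controls. It is a fair order only if reads came from whole transcripts, which the labels do not state and which counting by UMI often does not give. Tle5 was highest at 633 ± 93.2 CPM per kb, followed by Nfic at 78.0 ± 20.9, Gata4 at 49.8 ± 11.2, Nfia at 30.1 ± 8.53 and Nfib at 29.9 ± 5.12 CPM per kb (SD, n = 6). Then came Nfix at 14.2 ± 4.99, Gata6 at 8.92 ± 5.88, Tle1 at 5.19 ± 3.10 and Tle3 at 4.31 ± 1.56 CPM per kb. The ranges over controls did not overlap between Tle5 and Nfic or between Nfib and Nfix, and all other neighbours in the order overlapped. In MSNBA, Gata4 at 51.4 ± 5.96 and Nfic at 50.6 ± 3.12 CPM per kb changed places, as did Nfib and Nfia (SD, n = 6).

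Targets and partners of the 3 families were read from fixed lists. Of 16 gonadal GATA target genes 8 were tested, 3 with values above 0 and 5 below, a median log2 fold change of -0.10 beside -0.0082 for all genes, and 0 past the adjusted threshold by edgeR, DESeq2 or limma-voom. At an unadjusted p under 0.05 by edgeR, 1 was higher and 0 lower. That gene was Insl3, a Leydig peptide hormone, at 0.28 (SE 0.12, edgeR adjusted p = 0.401). Hsd17b3 and Nr0b1, 2 of the 16, had 0 counts in every library. Of 14 GATA cofactors and partners 2 were tested, Nr5a1 at -0.15 (SE 0.11) and Sp1 at -0.19 (SE 0.26), and neither passed. The GATA cofactor genes Zfpm1 and Zfpm2 had 5 and 2 counts in controls and 11 and 1 in MSNBA. Of 23 partners of TLE proteins 3 were tested, and 0 passed, among them the histone deacetylase gene Hdac1 at 0.35 (SE 0.22) and the Runx partner Cbfb at 0.31 (SE 0.32). By edgeR, 0 genes of these last lists had an unadjusted p under 0.05. None of 14 Wnt target genes, 16 Notch pathway genes, 6 NFI targets of brain and muscle or 8 other family genes had enough counts to be tested. Their summed counts in controls and MSNBA were 60 and 107, 138 and 287, 28 and 66, and 138 and 280 respectively. Fabp7 and Gfap, NFI targets of glia, had 0 counts.

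The genes most like each member over the 12 libraries, with group means removed, were found by Pearson correlation of log2 CPM among 2611 candidates for each. They are a description, as the highest of many values, and the libraries share their differences in depth. For Nfic they were Ogdh (r = 0.85) and Dcakd (r = 0.83), and for Tle5 they included Dclre1c (r = 0.84). For Nfia they were Plec (r = 0.89) and Cggbp1 (r = 0.87), for Nfib Dstn (r = 0.86) and Gtf2f1 (r = 0.85), for Nfix Aamp (r = 0.87) and Ubqln1 (r = 0.83), and for Gata4 Serbp1 (r = 0.86) and Lrrc41 (r = 0.81). No member was among the 2 most similar genes of another.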

How the data were processed

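The authors deposited 1 table of raw counts per gene symbol for 12 libraries, without normalization. Per the submitters' processing notes, BWA 0.7.4.4 and mm10 were used. The name of the deposited table reads as unique alignments to RefSeq genes counted by UMI, so a count may be a molecule rather than a read. No label states this, the counting program, the annotation release or strand. Groups came from the sample titles. Depth was 59113 to 657251 counts per library.

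Genes were filtered by filterByExpr, scaled by TMM and tested with the edgeR 4.0.16 robust quasi-likelihood F test (R 4.3.3; intercept and treatment, two-sided, Benjamini-Hochberg over 2614 genes, threshold 0.05), which was tested on simulated data. Intervals of fold changes are at 95%. Members under the filter are given as pooled counts with exact intervals. The members and lists were chosen with earlier results of these data known. The rule for naming took the 9 members, list genes at the lowest unadjusted p under 0.05, the 2 genes most correlated with each member (mean of at least 10 counts, prior count 2) and the 2 genes past the threshold. GC content and exon lengths came from GENCODE M21 and were matched for 99.8% of tested genes. Other genes named were chosen after their values were seen. The labels do not say whether replicate numbers pair libraries, and the main fit did not pair them. Residuals of same-numbered libraries correlated over 0.1 in 3 of 6 pairs (-0.23 to 0.48, 1672 genes), which does not settle the question. Alternatives were DESeq2 1.42.0, limma-voom 3.58.1, other scalings and filters, a replicate block, depth as covariate, a non-robust fit and libraries left out. Some genes that these rules would name are not reported here.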

Additional observations from a re-analysis of the deposited data

Results flagged for a closer look

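Among 24 sets of 6 libraries examined for a single distant value, 1 had such a value, where chance gives about 1.2. It was Nfib in MSNBA 2, at 548 CPM, with 442 CPM in the next highest MSNBA library. Without MSNBA 2 the log2 fold change of Nfib was -0.09, against -0.03 with all libraries.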

How the results depend on the processing

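Nfic and Tle5 kept values below 0 in all 23 alternatives and passed the adjusted threshold in 0 of them. With 1 library left out, Nfic ran from -0.70 (without control 1) to -0.46 (without control 3) and Tle5 from -0.48 (without control 1) to -0.36 (without MSNBA 1). Without the low-count filter they were -0.45 and -0.27, where the median of the 2614 genes moved by 0.14, and without controls 2 and 4, -0.60 and -0.47. With depth as a covariate 1 member, not 2, was lower at an unadjusted p under 0.05. The sign of Nfia, Nfib, Nfix and Gata4 turned in 3, 5, 6 and 3 alternatives. With 1 library left out the median of the 6 members ran from -0.23 (without control 1) to -0.014 (without MSNBA 3), and it was 0.08 without the low-count filter. Over all genes, the counts higher and lower were 2 and 4 by DESeq2, 8 and 7 without the filter, 4 and 3 without controls 2 and 4, 0 and 1 with 20 counts in 6 libraries, and 0 and 0 by limma-voom, with depth or with the non-robust fit. At an unadjusted p under 0.05 these last 3 had 259, 232 and 244 genes. With 1 library left out, 0 to 1 genes were higher and 0 to 5 lower: 5 without control 1, 4 without MSNBA 4, 1 without control 3 and 0 without control 4, 5 or 6 or MSNBA 1, 2, 3, 5 or 6. With a replicate block, 0 genes were higher and 3 lower, with Nfic at -0.60 and Tle5 at -0.43. The MSNBA library with the same number was the closest MSNBA match for 2 of 6 controls, so the block is no evidence of pairing. Fzr1 was -0.019 with depth and -0.062 without controls 2 and 4, and ran from -0.054 to 0.20 with 1 library left out. The cause of these shifts was not tested. Counting error limits Nfix, Gata6, Tle1 and Tle3 most: ratios of the last 3 ran from 1.01 to 1.26, 0.607 to 0.826 and 0.52 to 0.612 over their alternatives.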
